A study of Mus musculus with 12 samples.

Results

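The 8 genes examined here encode the CCCH zinc finger proteins ZFP36 (tristetraprolin), ZFP36L1 and ZFP36L2, and the BTG/TOB proteins BTG1, BTG2, BTG3, TOB1 and TOB2. They were chosen by symbol, as 8 of the 49671 Ensembl identifiers in the count files, and all 8 passed the filter on low counts, which kept 18668 genes with more than 1 read in 3 or more libraries. NIH 3T3 cells, an immortalized mouse embryonic fibroblast line, were transfected with a negative control siRNA or with a single siRNA sequence directed against all isoforms of Lap2, a nuclear lamina protein family encoded by Tmpo. Cells were then kept in 0.3% FBS (serum-starved) or starved and stimulated with 15% FBS for 45 min, which gave 4 groups: control siRNA in 0.3% FBS, control siRNA in 15% FBS, Lap2 siRNA in 0.3% FBS and Lap2 siRNA in 15% FBS. Each group held 3 libraries of rRNA-depleted total RNA from this one cell line, and the sources used here do not say whether the triplicates were separate experiments, so the p-values measure the spread between these samples.

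The proteins of both families shorten the life of mRNAs. ZFP36 proteins bind AU-rich elements in the 3′ untranslated regions of short-lived transcripts, such as those of cytokines and immediate-early genes, and bring the CCR4-NOT deadenylase to them. BTG and TOB proteins bind the CNOT7 and CNOT8 deadenylase subunits directly, TOB proteins also bind the poly(A)-binding protein, and several members are known as antiproliferative or immediate-early genes in serum-stimulated fibroblasts. ZFP36 is known to bind the AU-rich elements of its own mRNA.

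The data comprised 18026298 to 26265253 counted reads per library, with a median of 20710185. Tmpo, the gene targeted by the siRNA, had a log2 fold change of -1.38 in 0.3% FBS and -2.17 in 15% FBS. The 7 fibroblast markers (Col1a1, Col1a2, Col3a1, Fn1, Vim, Pdgfrb and S100a4) were detected in all 12 libraries, whereas 9 markers of epithelial, endothelial, immune and muscle cells together reached a CPM (reads scaled to a common total) of 2.57 to 4.35, with Krt18 and Myod1 at 0. Summed fibroblast marker CPM values were 37940 to 39396 and 40298 to 44310 in the control siRNA groups (0.3% and 15% FBS), against 23873 to 28872 and 28801 to 32025 in the Lap2 siRNA groups. The 7 markers did not all follow the sum. By the edgeR test described below, 4 were lower with Lap2 siRNA in 0.3% FBS, where 18.6% of all tested genes were. Fn1 (log2 fold change 0.37) and S100a4 (0.46) were higher there, where 17.8% were. In 15% FBS 5 were lower, where 12.1% were, and 0 higher, where 11.4% were. The part of these marker differences in the results below was not tested. Such bulk counts cannot tell a change in RNA per cell from a change in the number of cells, nor newly made precursor RNA from mature mRNA.

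The genes lie on 8 chromosomes of mm10, with spans as the count files give them. The ZFP36 genes are Zfp36 (ENSMUSG00000044786, chr7:28376784-28380253), Zfp36l1 (ENSMUSG00000021127, chr12:80107760-80113013) and Zfp36l2 (ENSMUSG00000045817, chr17:84183931-84187947), all on the minus strand. The BTG genes are Btg1 (ENSMUSG00000036478, chr10:96617001-96622813, plus strand), Btg2 (ENSMUSG00000020423, chr1:134075170-134079120, minus strand) and Btg3 (ENSMUSG00000022863, chr16:78359860-78377192, minus strand). The TOB genes are Tob1 (ENSMUSG00000037573, chr11:94211454-94215495, plus strand) and Tob2 (ENSMUSG00000048546, chr15:81848270-81858326, minus strand).

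The positions below also refer to mm10, and sequences are written in the direction of transcription. The promoters of Zfp36 and Btg2 are shown because these were the genes of the 8 with the highest fold changes upon serum stimulation, and because each held a motif that is rare among mouse promoters. The window runs from 250 bases before to 50 bases after the RefSeq (GRCm38.p6) transcription start, and 7 of the 8 genes had an entry. Zfp36l2 had none, so its promoter was not searched. The Zfp36 promoter lies at chr7:28379179-28379478 on the minus strand, and the capitals mark a CArG box, the binding sequence of serum response factor, whose first base is at -58 relative to the start. The Btg2 promoter lies at chr1:134079106-134079405 on the minus strand, and the capitals mark a full cAMP response element, TGACGTCA, at -166.
Zfp36 promoter: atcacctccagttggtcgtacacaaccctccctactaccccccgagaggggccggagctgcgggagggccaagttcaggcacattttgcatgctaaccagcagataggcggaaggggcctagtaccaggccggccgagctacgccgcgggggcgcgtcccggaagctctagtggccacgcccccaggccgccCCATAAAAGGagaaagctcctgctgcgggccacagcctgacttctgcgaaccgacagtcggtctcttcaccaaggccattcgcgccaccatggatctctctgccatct
Btg2 promoter: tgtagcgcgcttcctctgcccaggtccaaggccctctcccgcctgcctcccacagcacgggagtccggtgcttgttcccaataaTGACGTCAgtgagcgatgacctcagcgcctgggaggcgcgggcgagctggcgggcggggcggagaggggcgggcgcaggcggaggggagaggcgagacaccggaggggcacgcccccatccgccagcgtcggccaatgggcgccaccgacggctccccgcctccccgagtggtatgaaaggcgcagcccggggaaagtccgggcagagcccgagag

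The promoters were searched on both strands for the CArG box, the full cAMP response element TGACGTCA and its first 5 letters TGACG, the AP-1 site, the EGR site, TATAAA, and the ETS word GGAAGT. Of 32851 mouse promoters of this length, 1.63% held a CArG box and 1.79% the full cAMP response element. Among the genes with an entry, the CArG box was found in Zfp36, which also held an EGR site at -105 (3.47% of promoters), and the full cAMP response element in Btg2. TATAAA was found in Zfp36l1 at -29, in Btg1 at -26 and in Tob1 at -47, against 13.62% of promoters. The first 5 letters of the response element, which overlap the full element, were also found in Btg1 and Tob1 (20.81% of promoters), and GGAAGT in Btg1 and Tob2 (23.77%). No match says only that these letters are not in this window.

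Of the 8 mRNAs, 6 held a 7-base AU-rich word of the kind that ZFP36 proteins bind. Of all tested genes with a 3′ untranslated region, 27.4% did. The 7-base word TATTTAT and the 9-base word TTATTTATT, which contains the former, were counted in the 3′ untranslated region of the annotated transcript with the longest coding sequence (GENCODE M21). Zfp36, Zfp36l1 and Zfp36l2 each held the 7-base word 3 times, of which 1 lay within the 9-base word. Among tested genes with a region of like length (80 to 125% of it), 1.0% held the word as many times as Zfp36 or more often, against 3.5% for Zfp36l1 and 3.6% for Zfp36l2. Btg3 held it 2 times (2.0% of genes of like length), and Btg2 and Tob2 held it once, as 41.4% and 45.8% of genes of like length did at least. Btg1, with the longest region of the 8 (4166 bases), and Tob1 (767 bases) did not hold the word, which 60.1% and 19.0% of genes of like length did. Each site is shown here with 9 bases on either side and the 7-base word in capitals, because the ZFP36 genes hold more of them than most genes of like length and the 3 Zfp36 sites lie next to each other; of Zfp36l1 and Zfp36l2, the site within the 9-base word is given.
Zfp36 chr7:28376968-28376992, minus strand: tgggcccttTATTTATgacgacttt
Zfp36 chr7:28376953-28376977, minus strand: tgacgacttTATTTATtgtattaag
Zfp36 chr7:28376928-28376952, minus strand: attttatagTATTTATatatattgg
Zfp36l1 chr12:80108169-80108193, minus strand: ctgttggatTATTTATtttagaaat
Zfp36l2 chr17:84184916-84184940, minus strand: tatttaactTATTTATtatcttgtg
Btg2 chr1:134077251-134077275, minus strand: atgaagagcTATTTATacatgtttt
Btg3 chr16:78360043-78360067, minus strand: ggacttgagTATTTATatattgtgc
Btg3 chr16:78359939-78359963, minus strand: tatataagtTATTTATacagaagga
Tob2 chr15:81849862-81849886, minus strand: tcacctgctTATTTATgtacgaggt

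**Figure D1:**
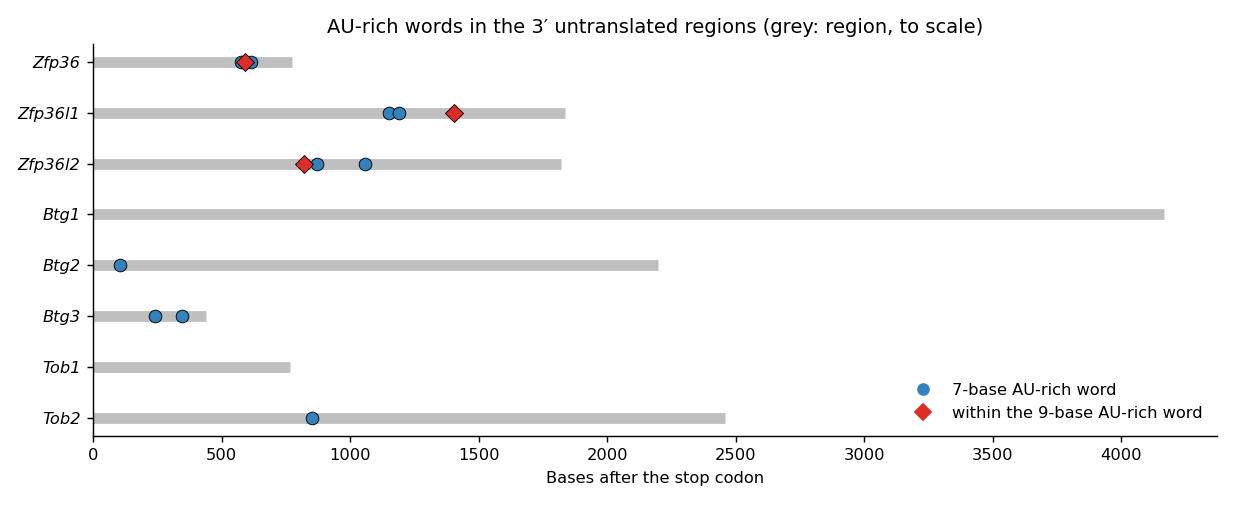
The 3′ untranslated regions of the 8 genes as grey bars, drawn to scale in bases after the stop codon, with each 7-base AU-rich word as a blue circle and each word within the 9-base word as a red diamond. The 3 words of Zfp36 sit between bases 575 and 615 of a region of 774 bases, and the bars of Btg1 and Tob1 hold none.

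The 8 genes were first placed by their level per length, as reads per kilobase of exon scaled to a common library size (FPKM), in which genes can be compared with each other. In serum-starved control cells the order was Zfp36l1 (108 ± 7.00 FPKM, SD, n = 3), Zfp36l2 (74.6 ± 0.598), Btg1 (51.4 ± 1.31), Tob1 (19.2 ± 1.27), Tob2 (10.2 ± 0.750), Btg2 (5.17 ± 0.457), Zfp36 (4.64 ± 0.648) and Btg3 (3.03 ± 0.343). Btg2 and Zfp36 overlapped in this order, at 4.72 to 5.63 and 3.92 to 5.19 FPKM. The annotated exons of Zfp36 together cover the whole 3470-base locus, intron included, which lowers its FPKM in every group alike. This locus, on the minus strand, ends at 28380253. It thus also holds sequence upstream of the promoter window shown above, which ends at 28379478. The place of Zfp36 in the order, its share of the ZFP36 sum and that sum therefore depend on the length used.

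Upon 45 min of 15% FBS the order in control cells became Zfp36l2 (282 ± 13.0 FPKM), Btg2 (245 ± 21.2), Zfp36l1 (177 ± 14.3), Zfp36 (127 ± 14.6), Btg1 (46.3 ± 3.75), Tob2 (12.4 ± 0.311), Tob1 (12.3 ± 0.479) and Btg3 (6.81 ± 0.988). Thus Btg2 moved from the sixth place to the second and Zfp36 from the seventh to the fourth, whereas Tob2 and Tob1 overlapped. In serum-starved Lap2 siRNA cells Zfp36l2 (78.3 to 92.9 FPKM) and Zfp36l1 (76.8 to 91.8 FPKM) overlapped at the top of the order, and Btg2 (3.99 ± 0.215 FPKM) lay below Zfp36 (7.87 ± 0.460 FPKM). In serum-stimulated Lap2 siRNA cells Zfp36l2 (294 to 311 FPKM) and Zfp36l1 (234 to 292 FPKM) each overlapped with Btg2 (242 to 306 FPKM), followed by Zfp36 (157 ± 17.2 FPKM).

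Summed over the family, the 3 ZFP36 genes stood at 188 ± 6.93 FPKM in starved and 586 ± 41.8 FPKM in stimulated control cells, and at 181 ± 16.0 and 730 ± 56.8 FPKM with Lap2 siRNA (SD, n = 3). The 5 BTG/TOB genes stood at 89.0 ± 2.70 and 323 ± 24.0 FPKM with control siRNA, and at 82.4 ± 0.525 and 357 ± 37.1 FPKM with Lap2 siRNA. The shares of the genes in these sums shifted with serum. Zfp36 made up 2.47 ± 0.295% of the ZFP36 sum in starved control cells and 21.7 ± 1.00% after stimulation, while Zfp36l1 went from 57.7 ± 1.62% to 30.1 ± 0.328%. Btg1 made up 57.8 ± 0.305% of the BTG/TOB sum in starved control cells and 14.3 ± 0.181% after stimulation, and Btg2 went from 5.80 ± 0.348% to 75.8 ± 1.06%. With Lap2 siRNA the share of Btg2 was 4.84 ± 0.250% and 78.4 ± 1.40%, and that of Zfp36 was 4.36 ± 0.259% and 21.4 ± 0.788%.

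**Figure D2:**
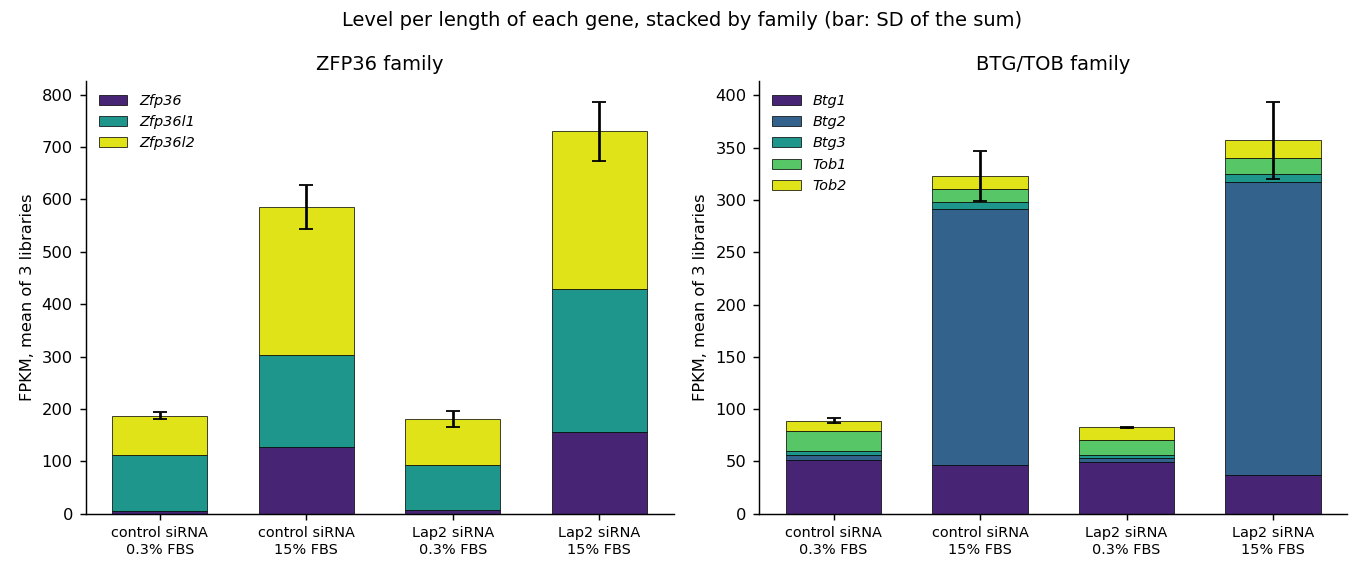
Mean FPKM of each gene in the 4 groups, stacked by family, with the SD of the summed FPKM over 3 libraries as bars. The ZFP36 sum is 188 FPKM in starved and 586 FPKM in stimulated control cells, and Btg2 takes up 75.8% of the BTG/TOB sum after stimulation.

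To ask how serum stimulation changed these genes, 15% FBS was compared with 0.3% FBS in control siRNA cells, from the counts, with the quasi-likelihood test of edgeR and p-values adjusted after Benjamini and Hochberg over all 18668 genes. Of the 8 genes, 6 rose, where 15.6% of all tested genes did, 1 fell, where 13.9% did, and 1 did not pass the threshold of an adjusted p of 0.05. Their median log2 fold change was 0.94, against -0.01 for all tested genes. Levels are given below as normalised read counts, that is counts brought to a common library size, which can be compared between libraries but not between genes.

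Btg2, an antiproliferative immediate-early gene, gave the highest fold change of the 8 genes. Its normalised counts were 299, 326 and 273 in starved control cells and 14752, 15001 and 12758 after stimulation. The stimulated libraries thus lay far above the starved ones, a 47.2-fold rise (log2 fold change 5.56 ± 0.10, SE, edgeR adjusted p = 1.3e-30), which ranked 37 among all tested genes. Zfp36 stood at 351, 379 and 287 normalised counts in starved and at 9899, 9990 and 8091 in stimulated control cells. Every stimulated library exceeded every starved one, by 27.4-fold (log2 fold change 4.77 ± 0.10, edgeR adjusted p = 4.0e-28), rank 65.

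The other ZFP36 genes, which were already high in starved cells, rose less. Zfp36l2 went from 5607, 5522 and 5541 normalised counts to 21735, 21410 and 19921. The groups did not overlap, and the rise was 3.78-fold (log2 fold change 1.92 ± 0.07, edgeR adjusted p = 3.4e-22). Zfp36l1 went from 6466, 7308 and 6663 to 11626, 11656 and 10079 normalised counts. This was a rise of 1.63-fold without overlap (log2 fold change 0.71 ± 0.08, edgeR adjusted p = 6.1e-09).

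Among the remaining BTG/TOB genes, directions differed. Btg3, the least abundant of the 8 per length, had 104, 84.9 and 87.4 normalised counts in starved and 223, 172 and 225 in stimulated control cells. This was a rise of 2.24-fold without overlap (log2 fold change 1.17 ± 0.14, edgeR adjusted p = 3.6e-08). Tob2 rose from 1398, 1389 and 1224 to 1671, 1598 and 1603 normalised counts. The groups lay close to each other without overlap, at 1.21-fold (log2 fold change 0.28 ± 0.07, edgeR adjusted p = 0.0021), and with total-count scaling the value was 0.07 (edgeR adjusted p = 0.46).

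Tob1 was the member that fell. Its normalised counts were 856, 972 and 947 in starved and 575, 589 and 620 in stimulated control cells, again without overlap. The log2 fold change was -0.64 ± 0.08, 1.56-fold lower (edgeR adjusted p = 7.2e-08). Btg1, the most abundant BTG/TOB gene in starved cells, had 5691, 5884 and 5598 normalised counts before and 5440, 5347 and 4676 after stimulation. The stimulated libraries were the lower ones, but the log2 fold change of -0.15 ± 0.07 did not pass the threshold (edgeR adjusted p = 0.086), although it did under other scalings (-0.36 with total counts and -0.25 with the upper quartile), with only the compared groups in the fit (-0.15, edgeR adjusted p = 0.027) and without Lap2 siRNA, 0.3% FBS replicate 1 (-0.14, edgeR adjusted p = 0.046).

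**Figure D3:**
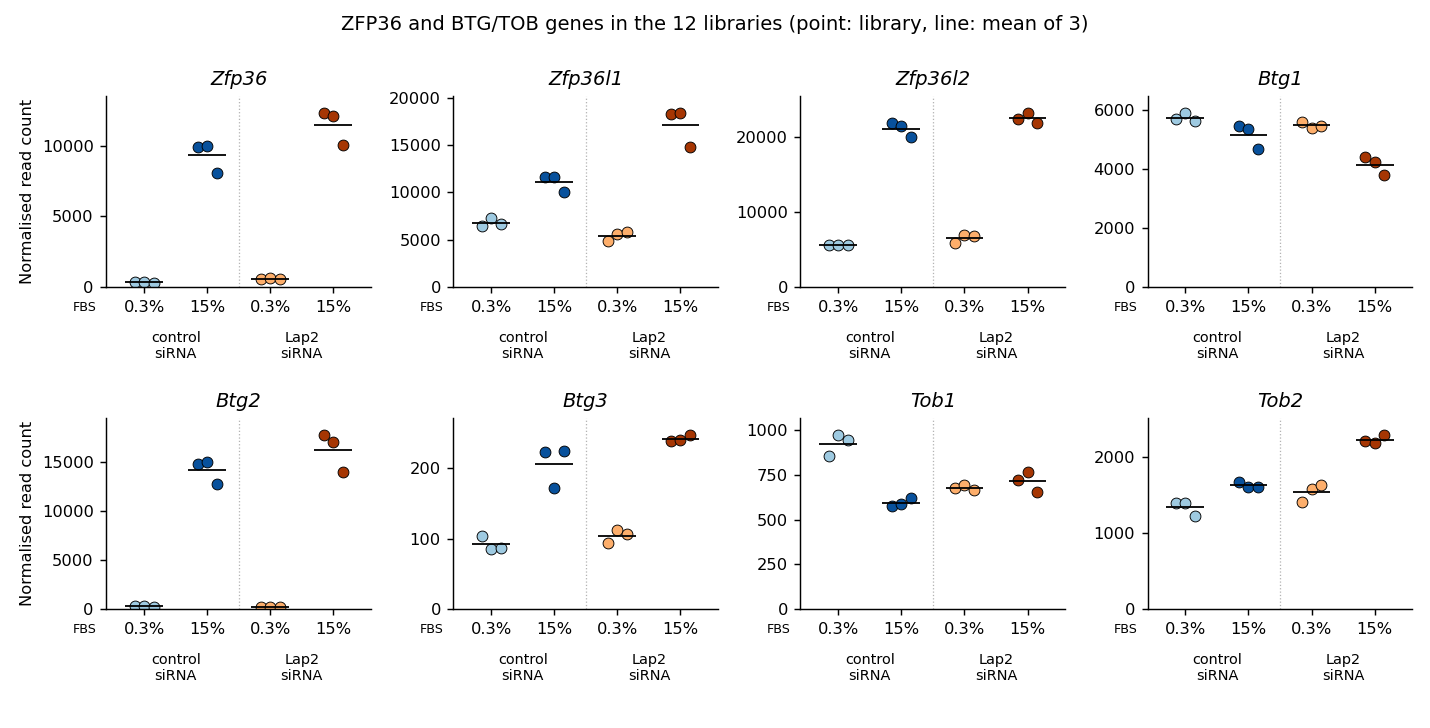
Normalised read counts of the 8 genes in the 12 libraries, as points by siRNA and FBS, with the mean of 3 libraries as a line and each vertical axis starting at 0. Btg2 sits between 217 and 326 in the starved libraries and between 12758 and 17708 in the stimulated ones, while Btg1 and Tob1 do not rise with serum in control cells.

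In Lap2 siRNA cells, 6 of the 8 genes likewise rose upon serum stimulation, where 18.3% of all tested genes did, and 1 fell, where 14.9% did. The median log2 fold change of the 8 was 1.44, against 0.00 for all tested genes. Btg2 went from 232, 217 and 242 to 17708, 16967 and 14008 normalised counts. The groups were again far apart, and this 70.3-fold rise (log2 fold change 6.14 ± 0.10, edgeR adjusted p = 2.9e-31) ranked 10 among all tested genes. Zfp36 went from 546, 613 and 570 to 12296, 12114 and 10030 normalised counts. It rose 19.9-fold without overlap (log2 fold change 4.32 ± 0.10, edgeR adjusted p = 3.0e-27). In both 15% FBS groups replicate 3 gave the lowest count of Zfp36, Zfp36l1, Zfp36l2, Btg1 and Btg2.

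Zfp36l1 had 4835, 5583 and 5779 normalised counts in starved and 18228, 18374 and 14748 in stimulated Lap2 siRNA cells. This was a rise of 3.17-fold without overlap (log2 fold change 1.66 ± 0.08, edgeR adjusted p = 6.8e-18). Zfp36l2 went from 5829, 6916 and 6786 to 22341, 23124 and 21859 normalised counts, a 3.45-fold rise without overlap (edgeR adjusted p = 2.9e-21). Btg3 rose 2.32-fold (edgeR adjusted p = 1.2e-08), from 93.7, 113 and 107 to 239, 240 and 247 normalised counts. All stimulated libraries of these 3 genes lay above all starved ones.

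Tob2 rose 1.45-fold (log2 fold change 0.53 ± 0.07, edgeR adjusted p = 1.6e-07), from 1403, 1581 and 1625 to 2206, 2184 and 2283 normalised counts without overlap. Btg1 fell from 5564, 5393 and 5456 to 4400, 4230 and 3790 normalised counts without overlap. The log2 fold change was -0.40 ± 0.07, 1.32-fold lower (edgeR adjusted p = 9.2e-06). Tob1, at 678, 694 and 663 normalised counts before and 723, 766 and 653 after stimulation, did not pass the threshold, and its groups overlapped. Its log2 fold change was 0.07 with a 95% interval from -0.09 to 0.23 (edgeR adjusted p = 0.55), and it turned to -0.16 with total-count scaling.

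Lap2 siRNA was then compared with control siRNA within each serum condition. These comparisons use the same libraries as the serum comparisons and are not independent of them. In 0.3% FBS, 3 of the 8 genes were higher with Lap2 siRNA, where 17.8% of all tested genes were, and 3 were lower, where 18.6% were. The median log2 fold change of the 8 was 0.06, against 0.01 for all tested genes.

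In starved cells Zfp36 was the member raised most by Lap2 siRNA. Its libraries, listed above, lay at 546 to 613 normalised counts with Lap2 siRNA and at 287 to 379 with control siRNA, 1.69-fold higher without overlap (log2 fold change 0.76 ± 0.10, edgeR adjusted p = 2.8e-07). Zfp36l2 was 1.17-fold higher (log2 fold change 0.23 ± 0.06, edgeR adjusted p = 0.0048) and Tob2 1.15-fold higher (log2 fold change 0.20 ± 0.07, edgeR adjusted p = 0.026). The Tob2 call was lost when control siRNA, 0.3% FBS replicate 3 was left out (0.16, edgeR adjusted p = 0.13), or either Lap2 siRNA, 0.3% FBS replicate 2 (0.19, edgeR adjusted p = 0.059) or replicate 3 (0.17, edgeR adjusted p = 0.1). It was also lost with only the compared groups in the fit (0.18, edgeR adjusted p = 0.09).

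Tob1, Zfp36l1 and Btg2 were lower with Lap2 siRNA in 0.3% FBS. Tob1 fell by 0.45 on the log2 scale (SE 0.08, 1.36-fold lower, edgeR adjusted p = 2.4e-05), Zfp36l1 fell by 0.34 (SE 0.08, 1.26-fold lower, edgeR adjusted p = 8.4e-04), and Btg2 fell by 0.38 (SE 0.11, 1.30-fold lower, edgeR adjusted p = 0.0042). The Btg2 call was lost without control siRNA, 0.3% FBS replicate 2, where the value was -0.29 (edgeR adjusted p = 0.06). Btg1 (-0.07, 95% interval -0.19 to 0.06, edgeR adjusted p = 0.48) and Btg3 (0.18, interval -0.12 to 0.48, edgeR adjusted p = 0.38) did not pass the threshold.

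In 15% FBS, 4 of the 8 genes were higher with Lap2 siRNA, where 11.4% of all tested genes were, and 1 was lower, where 12.1% were. The median log2 fold change of the 8 was 0.25, against 0.02 for all tested genes. Zfp36l1 was 1.54-fold higher (log2 fold change 0.62 ± 0.08, edgeR adjusted p = 1.8e-07), with 14748 to 18374 normalised counts against 10079 to 11656. Tob2 was 1.37-fold higher (log2 fold change 0.45 ± 0.07, edgeR adjusted p = 5.8e-06), with 2184 to 2283 against 1598 to 1671. For both genes the ranges lay apart.

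Zfp36 was 1.23-fold higher in 15% FBS (log2 fold change 0.30 ± 0.08, edgeR adjusted p = 0.006) and Tob1 1.20-fold higher (log2 fold change 0.26 ± 0.08, edgeR adjusted p = 0.016). The Zfp36 call was lost without control siRNA, 15% FBS replicate 3 (0.21, edgeR adjusted p = 0.083) or Lap2 siRNA, 15% FBS replicate 1 (0.25, edgeR adjusted p = 0.055). The Tob1 call was lost without replicate 1 or 2 of either 15% FBS group (0.21 to 0.26, edgeR adjusted p = 0.052 to 0.12). Btg1 was the member lowered by Lap2 siRNA in 15% FBS, at 3790 to 4400 against 4676 to 5440 normalised counts (log2 fold change -0.32 ± 0.07, 1.25-fold lower, edgeR adjusted p = 4.3e-04). Btg2 (0.20, 95% interval 0.05 to 0.34, edgeR adjusted p = 0.056), Btg3 (0.23, interval -0.02 to 0.48, edgeR adjusted p = 0.23) and Zfp36l2 (0.09, interval -0.03 to 0.22, edgeR adjusted p = 0.33) did not pass the threshold. The Btg2 value lay close to it and passed under several alternatives. These were total-count scaling (0.28, edgeR adjusted p = 0.0042), a filter on any count (0.19, 0.026), only the compared groups in the fit (0.19, 0.026) and the replicate block (0.19, 0.027). Btg2 also passed without control siRNA, 15% FBS replicate 2 (0.24, edgeR adjusted p = 0.05 after rounding), Lap2 siRNA, 0.3% FBS replicate 1 (0.18, 0.021) or Lap2 siRNA, 15% FBS replicate 3 (0.28, 0.006). Zfp36l2 passed with total-count scaling (0.18, edgeR adjusted p = 0.033).

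**Figure D4:**
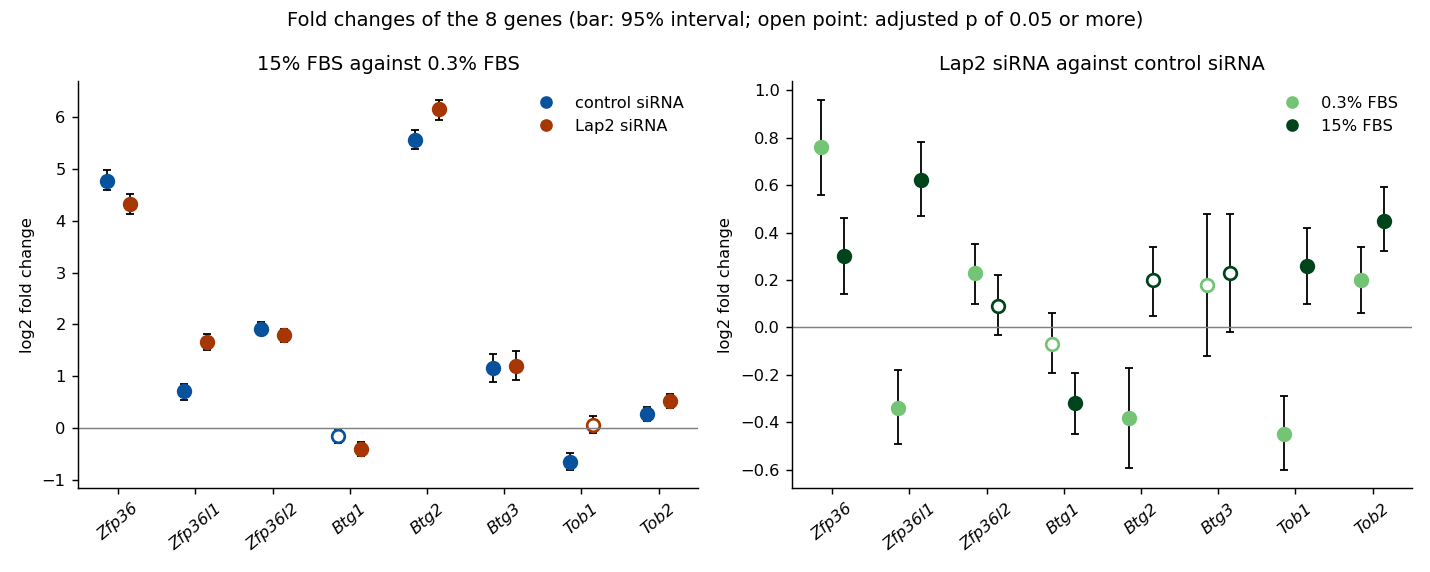
Log2 fold changes of the 8 genes with 95% intervals as bars, for 15% against 0.3% FBS in both siRNA groups (left) and for Lap2 against control siRNA in both serum conditions (right), with open points for an edgeR adjusted p of 0.05 or more. On the left Btg2 stands at 5.56 and 6.14 and Zfp36 at 4.77 and 4.32, and on the right Zfp36l1 lies at -0.34 in 0.3% and at 0.62 in 15% FBS.

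Whether the serum response itself differed between the siRNA groups was tested as an interaction, the log2 serum response with Lap2 siRNA minus that with control siRNA. It was higher for 3 of the 8 genes, where 7.09% of all tested genes were, and lower for 1, where 6.51% were, and the median over the 8 was 0.15, against 0.02 for all tested genes. Zfp36l1 gave the largest difference of the 8, 0.96 ± 0.11 (edgeR adjusted p = 1.2e-07), its response being 1.63-fold with control and 3.17-fold with Lap2 siRNA. The response of Tob1 differed by 0.71 ± 0.11 (edgeR adjusted p = 2.6e-05), from a fall with control siRNA to a value that did not pass the threshold with Lap2 siRNA. For Btg2 the difference was 0.58 ± 0.13 (edgeR adjusted p = 0.0019), with fewer counts in starved Lap2 siRNA than in starved control cells.

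Zfp36 responded less with Lap2 siRNA, by -0.46 ± 0.13 on the log2 scale (edgeR adjusted p = 0.016), although its level was higher with Lap2 siRNA in both serum conditions. This call was lost without control siRNA, 0.3% FBS replicate 3 (-0.38, edgeR adjusted p = 0.067) or control siRNA, 15% FBS replicate 2 (-0.41, edgeR adjusted p = 0.053). The differences of Tob2 (0.26, 95% interval 0.06 to 0.45, edgeR adjusted p = 0.089), Btg1 (-0.25, interval -0.43 to -0.07, edgeR adjusted p = 0.072), Zfp36l2 (-0.13, interval -0.31 to 0.04, edgeR adjusted p = 0.39) and Btg3 (0.05, interval -0.35 to 0.44, edgeR adjusted p = 0.93) did not pass the threshold. Without Lap2 siRNA, 0.3% FBS replicate 1, both Zfp36l2 (-0.24, edgeR adjusted p = 0.0088) and Btg1 (-0.27, edgeR adjusted p = 0.017) responded less with Lap2 siRNA. Btg1 also passed with DESeq2 (-0.28, adjusted p = 0.02), with total-count scaling (-0.28, edgeR adjusted p = 0.048) and without control siRNA, 0.3% FBS replicate 2 (-0.30, edgeR adjusted p = 0.05 after rounding) or control siRNA, 15% FBS replicate 3 (-0.31, edgeR adjusted p = 0.026).

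The wider mRNA decay machinery was described with lists of its known components, as counts over each list, to be read beside the shares of all tested genes. These were 15.6% higher and 13.9% lower upon serum stimulation with control siRNA, 18.3% and 14.9% with Lap2 siRNA, and 17.8% and 11.4% higher with Lap2 siRNA in 0.3% and 15% FBS. Lap2 siRNA, 0.3% FBS replicate 1 stood apart from the other 2 libraries of its group in several of these genes, with 690 against 440 and 408 normalised counts of Lsm5 and 1148 against 1551 and 1554 of Xrn1. The lists were therefore also counted without it, an alternative added after seeing the data. Of 14 deadenylase and CCR4-NOT genes, 3 rose upon serum stimulation in control cells by the edgeR test: the catalytic subunits Cnot6 (0.35 ± 0.07, edgeR adjusted p = 7.6e-05) and Cnot7 (0.27 ± 0.07, edgeR adjusted p = 0.0044), and the ubiquitin ligase subunit Cnot4 (0.23 ± 0.08, edgeR adjusted p = 0.036). The Cnot4 call was lost without control siRNA, 0.3% FBS replicate 1 or 3, or control siRNA, 15% FBS replicate 1 or 2 (0.20 to 0.23, edgeR adjusted p = 0.074 to 0.14). The median of the 14 was 0.00 on the log2 scale. With Lap2 siRNA, 2 rose (Parn and Cnot4) and 3 fell, Cnot1, the scaffold of the complex, by 0.30 (edgeR adjusted p = 7.4e-04), Pan2 by 0.25 and Cnot9 by 0.23 (edgeR adjusted p = 0.02 for both). Without Lap2 siRNA, 0.3% FBS replicate 1, 1 rose and 4 fell, with Cnot1 at -0.41, Pan2 at -0.38 and Cnot9 at -0.27 (edgeR adjusted p = 4.1e-08, 4.4e-05 and 0.0037), Parn at 0.20 (edgeR adjusted p = 0.044) and Cnot4 at 0.16 (edgeR adjusted p = 0.13). The falls of Pan2 and Cnot9 were lost without Lap2 siRNA, 0.3% FBS replicate 3 or Lap2 siRNA, 15% FBS replicate 1 (-0.18 to -0.25, edgeR adjusted p = 0.055 to 0.12), that of Pan2 also without Lap2 siRNA, 0.3% FBS replicate 2 or Lap2 siRNA, 15% FBS replicate 3 (-0.21 and -0.23), and that of Cnot9 without Lap2 siRNA, 15% FBS replicate 2 (-0.20). The rise of Cnot4 was likewise lost without Lap2 siRNA, 0.3% FBS replicate 2 or Lap2 siRNA, 15% FBS replicate 1 or 2 (0.20 and 0.21, edgeR adjusted p = 0.094 to 0.11). These small values hang on the scaling. Total counts moved the median of all genes by -0.21 with control siRNA and by -0.23 with Lap2 siRNA. With them more of the 14 fell, and the rises were lost in either siRNA group. The share of all tested genes that fell with total counts was not counted, so these falls say nothing particular about the 14.

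Decapping and 5′ to 3′ decay genes (15) showed 1 rise and 1 fall upon serum stimulation in control cells, with a median of 0.02, and 1 rise and 3 falls with Lap2 siRNA, with a median of -0.05, or 1 fall alone without Lap2 siRNA, 0.3% FBS replicate 1. With total counts more of them fell in either siRNA group, and here too the share of all tested genes was not counted. The rise in control cells was that of Patl1, a decapping activator (0.42 ± 0.08, edgeR adjusted p = 4.3e-05). With Lap2 siRNA against control siRNA, 7 of the 15 were higher in 0.3% FBS, where 17.8% of all tested genes were, and 4 in 15% FBS, where 11.4% were. Among those in 0.3% FBS were Lsm5 (0.75 ± 0.13), Lsm2 (0.64 ± 0.11) and Lsm4 (0.62 ± 0.10, edgeR adjusted p = 2.1e-05, 1.7e-05 and 1.1e-05). Without Lap2 siRNA, 0.3% FBS replicate 1 the count stayed at 7, and these values were 0.49, 0.47 and 0.46 (edgeR adjusted p = 2.3e-04, 1.6e-04 and 4.8e-05). With all libraries, Lsm6 was also higher in 0.3% FBS (0.45 ± 0.09, edgeR adjusted p = 1.7e-04). The LSM genes did not all follow: Lsm1 (0.05), Lsm3 (0.14) and Lsm7 (0.26) did not pass the threshold there (edgeR adjusted p = 0.74, 0.4 and 0.095). Of the 4 poly(A)-binding protein genes, Paip1, a partner of the poly(A)-binding protein, rose upon serum stimulation with control (0.25 ± 0.07, edgeR adjusted p = 0.0038) and with Lap2 siRNA (0.37 ± 0.07, edgeR adjusted p = 4.9e-05), and neither rise passed the threshold with total-count scaling. Paip2, an inhibitor of that protein, fell by 0.30 in control cells (edgeR adjusted p = 0.0031).

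Of 10 other mRNA stability factors, 5 rose and 3 fell with serum in control cells, where 15.6% of all tested genes rose and 13.9% fell. With Lap2 siRNA, 5 rose and 4 fell, where 18.3% and 14.9% did. Lap2 siRNA against control siRNA left 6 of them higher in 0.3% FBS, where 17.8% of all tested genes were, and 2 in 15% FBS, where 11.4% were. Without Lap2 siRNA, 0.3% FBS replicate 1, these became 4 rises and 5 falls with serum, and 9 higher in 0.3% FBS. Zc3h12a, which encodes the endonuclease regnase-1 and is itself a CCCH zinc finger gene, stood apart in size. Its normalised counts were 100, 91.8 and 100 in starved and 1680, 1680 and 1551 in stimulated control cells, and 119, 141 and 141 and then 1558, 1623 and 1612 with Lap2 siRNA. The rise was 16.8-fold with control and 12.0-fold with Lap2 siRNA (edgeR adjusted p = 3.4e-27 and 5.8e-26), and the responses differed by -0.49 ± 0.14 (edgeR adjusted p = 0.012). Elavl1, whose product HuR stabilizes mRNAs with AU-rich elements, rose 1.62-fold in control cells (log2 fold change 0.69 ± 0.06, edgeR adjusted p = 6.2e-11), and Khsrp, which promotes their decay, fell by 0.33 on the log2 scale (edgeR adjusted p = 7.1e-05). Other genes whose products promote decay went up in these cells, among them the roquin genes Rc3h2 (0.59 ± 0.08) and Rc3h1 (0.27 ± 0.07) and Hnrnpd, which encodes AUF1 (0.45 ± 0.06, edgeR adjusted p = 1.1e-07, 0.0022 and 1.7e-07). Total-count scaling moved the median of all genes by -0.21 in this comparison. A rise near that size, such as that of Rc3h1, therefore depends on the scaling. Tia1 fell by 0.23 (SE 0.07, edgeR adjusted p = 0.014), and this call was lost without control siRNA, 0.3% FBS replicate 3 or control siRNA, 15% FBS replicate 1 or 2 (-0.15 to -0.21, edgeR adjusted p = 0.076 to 0.18). Khsrp was also higher with Lap2 siRNA, by 0.52 in 0.3% and 0.44 in 15% FBS (edgeR adjusted p = 2.5e-08 and 1.7e-06).

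Of 3 kinases upstream of ZFP36, Mapkapk2 (MK2), which phosphorylates and inhibits ZFP36, rose by 1.14 ± 0.06 with control and by 0.86 ± 0.06 with Lap2 siRNA (edgeR adjusted p = 5.5e-17 and 1.0e-13). Mapkapk3 (MK3), its close relative, rose with Lap2 siRNA (0.55 ± 0.10, edgeR adjusted p = 3.6e-05) and stood at 0.06 ± 0.10 with control siRNA (edgeR adjusted p = 0.75). The serum response with Lap2 siRNA was thus lower for Mapkapk2 (-0.28 ± 0.08, edgeR adjusted p = 0.02) and higher for Mapkapk3 (0.49 ± 0.14, edgeR adjusted p = 0.016). The Mapkapk2 difference was lost without replicate 1 of either 15% FBS group or Lap2 siRNA, 15% FBS replicate 2 (-0.27, edgeR adjusted p = 0.057 to 0.064). That of Mapkapk3 was lost without control siRNA, 0.3% FBS replicate 2 or 3, Lap2 siRNA, 0.3% FBS replicate 3 or replicate 2 of either 15% FBS group (0.38 to 0.46, edgeR adjusted p = 0.05 to 0.081). With Lap2 siRNA, Mapkapk2 was higher in 0.3% FBS (0.27 ± 0.06, edgeR adjusted p = 3.5e-04) and Mapkapk3 in 15% FBS (0.56 ± 0.10, edgeR adjusted p = 5.3e-05). Mapk14, which encodes the p38 kinase upstream of MK2, was higher by 0.38 ± 0.07 in 0.3% FBS (edgeR adjusted p = 1.8e-05). Its 15% FBS value of 0.24 ± 0.07 also passed (edgeR adjusted p = 0.0062) but was lost without Lap2 siRNA, 15% FBS replicate 3 (0.19, edgeR adjusted p = 0.069).

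The mRNAs known as ZFP36 targets through AU-rich elements were listed with earlier results of these data known. The list includes immediate-early genes such as Ptgs2 and Ier3, which the paper names for a high serum response. The counts below therefore describe the list and are no test of ZFP36 targets. Of 16 such genes, 12 passed the filter. All 12 rose upon serum stimulation in both siRNA groups, where 15.6% of all tested genes did with control and 18.3% with Lap2 siRNA. The median log2 fold change of the 12 was 4.09 with control and 3.14 with Lap2 siRNA, against -0.01 and 0.00 for all tested genes. Ptgs2, which encodes cyclooxygenase-2, had 317, 280 and 302 normalised counts in starved and 94315, 94216 and 93475 in stimulated control cells. With Lap2 siRNA it had 1405, 1381 and 1407 and then 98387, 94338 and 109308. The starved Lap2 siRNA libraries lay well above the starved control ones, a 4.67-fold difference (log2 fold change 2.22 ± 0.07, edgeR adjusted p = 3.1e-21), and the serum rise was 314-fold with control and 72.0-fold with Lap2 siRNA. Of the 12, 7 held the 7-base word TATTTAT in the 3′ untranslated region examined, where 27.4% of all tested genes with such a region did. The other 5 held none there, in regions of 275 bases for Ccl2, 315 for Vegfa, 442 for Myc, 496 for Plaur and 1355 for Nfkbiz. No other transcript of these genes was searched, so the word may lie in longer forms. The other genes among the 3 with the highest log2 serum responses in each siRNA group were Fos, an AP-1 component (6.67 with control and 6.63 with Lap2 siRNA), and Lif, a cytokine (7.16 and 6.24).

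In starved cells 7 of these 12 mRNAs were higher with Lap2 siRNA, where 17.8% of all tested genes were, and 2 lower, where 18.6% were. Among the higher ones were Ptgs2 and Ier3, for which the paper reports a raised baseline in Lap2-depleted cells from the same data. Their median log2 fold change was 0.83, against 0.01 for all tested genes. The lower ones were Nfkbiz (-0.58 ± 0.13, edgeR adjusted p = 7.8e-04) and Vegfa (-0.43 ± 0.10, edgeR adjusted p = 0.0011). In stimulated cells 1 was higher, where 11.4% of all tested genes were, and 2 lower, where 12.1% were. The median was 0.07, against 0.02 for all tested genes. The higher one was Vegfa (0.39 ± 0.09, edgeR adjusted p = 0.0016). This call was lost without Lap2 siRNA, 15% FBS replicate 3 (0.19, edgeR adjusted p = 0.098). The serum response was lower with Lap2 siRNA for 8 of the 12, where 6.51% of all tested genes were lower. It was higher for 2, Vegfa and Nfkbiz, where 7.09% were. The median difference was -0.89, against 0.02 for all tested genes. The Lif call (-0.92) was lost without control siRNA, 0.3% FBS replicate 2, Lap2 siRNA, 0.3% FBS replicate 2 or 3, or Lap2 siRNA, 15% FBS replicate 2. Its values were then -0.71 to -0.93 (edgeR adjusted p = 0.051 to 0.14). The response of Zfp36 differed in the direction of the 8 (-0.46), and those of Zfp36l1 (0.96) and Btg2 (0.58) in the direction of the 2. No relation between Zfp36 and these mRNAs was tested. The siRNA difference in starved cells and the difference in serum response share the starved libraries of both siRNA groups, with opposite sign. The higher starved levels and the lower serum responses are thus not separate findings.

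**Figure D5:**
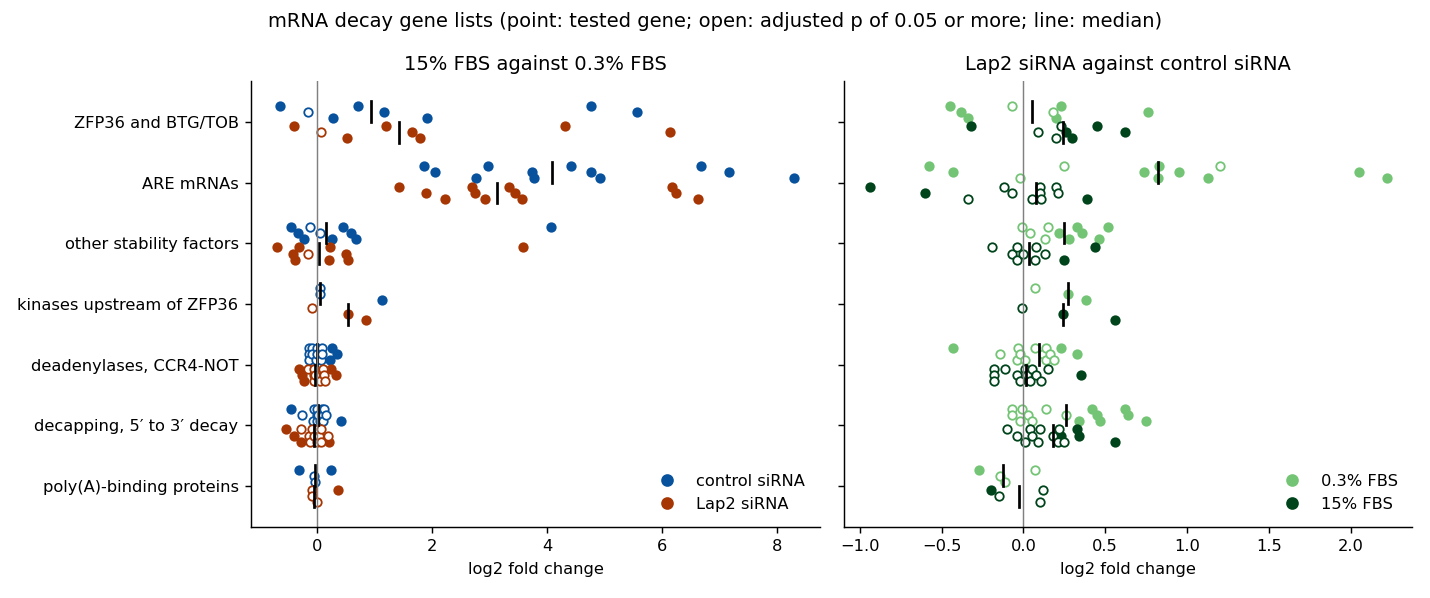
Log2 fold changes of the tested genes of each mRNA decay list, as points, for 15% against 0.3% FBS (left) and Lap2 against control siRNA (right), filled where the edgeR adjusted p is under 0.05, with the median as a line. Serum responses of the AU-rich element mRNAs centre at 4.09 and 3.14, whereas deadenylase, decapping and poly(A)-binding protein genes lie near 0.

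Family relatives were barely detected, with at most 7 counts per library for Zfp36l3 and 3 for Btg4. Of near copies that could share reads, Zfp36l1-ps held at most 4 counts per library and Btg1-ps1 and Btg1-ps2 held 0. Antisense transcripts overlap Zfp36 (Gm44710, 176 counts summed over the 12 libraries) and Zfp36l1 (Gm26669, 1767 counts), and the strand setting of the counting is not given in the sources used here.

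Finally, the genes whose log2 CPM followed each member most closely over the 12 libraries were listed, out of 10449 genes that averaged 100 normalised counts or more. The points share the 4 groups, so the values mainly describe the pattern over groups. The nearest genes were Zfp281 (Pearson r = 0.998), Arc (0.997) and Zfp36l2 (0.997) for Zfp36, and Zc3h12a, Bhlhe40 (both 0.998) and Zfp281 (0.997) for Zfp36l2. For Btg2 these were Klf10, Fosb (both 0.999) and Per1 (0.998), and for Btg3 they included Mtss1l (0.990) and Csf1 (0.987). Zfp36l1 was nearest to H3f3b (0.974), Gem and Foxc2 (both 0.972), and Tob2 to Eif4e2 (0.976), Ptges (0.973) and Smad6 (0.972). The patterns of the genes that did not rise in control cells were followed less closely, Tob1 by Pdcd4 (0.970), Alg2 (0.954) and Hdac11 (0.952), and Btg1 by Psrc1 (0.940), Rnf145 (0.925) and Wdr59 (0.915).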

How the data were processed

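Counts per gene were analysed for all 12 libraries. The authors aligned reads with TopHat2 to mm10 and counted them per gene with HTSeq; the deposited values are unnormalised counts, and tool versions are not given in the sources used here. From the counts, R 4.3.3 with edgeR 4.0.16 was used (TMM, one mean per group, glmQLFTest, Benjamini-Hochberg adjustment, threshold 0.05). Contrasts were each serum response, each siRNA difference and their interaction. FPKM used the GENCODE M21 exon length. Log2 CPM had a prior count of 2. AU-rich words and promoter motifs were searched with Python 3.11.15 and pandas 2.3.3, and figures drawn with matplotlib 3.10.9. The edgeR step was tested on simulated data. Named were the 8 genes, Tmpo, from each list up to 3 genes per contrast and direction (largest fold change, at least 100 normalised counts), and the 3 genes most alike to each member, of which some are not reported here; Zfp36l3, Btg4, Hnrnpd, Rc3h1, Ccl2, Myc, pseudogenes and antisense genes were named after their values were seen. The members and lists were chosen with earlier results of these data known. Alternatives were DESeq2 1.42.0, total-count and upper-quartile scaling, 3 other filters, a threshold of 0.01, fits to the compared groups alone, a replicate block and leaving out each library.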

Additional observations from a re-analysis of the deposited data

Results flagged for a closer look

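Of the 8 genes, 4 had a serum response that differed between the siRNA groups by the interaction test of edgeR over all tested genes, as log2 response with Lap2 siRNA minus that with control siRNA. The difference was 0.96 for Zfp36l1, 0.71 for Tob1, 0.58 for Btg2 and -0.46 for Zfp36. In starved cells Zfp36l1, Tob1 and Btg2 were lower with Lap2 siRNA and Zfp36 was higher, so that each difference is opposite in sign to the difference at the starved level, with which it shares the starved libraries.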

How the results depend on the processing

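Over the 5 comparisons, the number of the 8 genes called moved by over 1.5 times in 3 cases. Falls upon serum stimulation with control siRNA went from 1 to 2 with total-count scaling, upper-quartile normalization (2) and only the groups compared (2), and ranged from 1 to 2 when each library was left out, the added gene being Btg1 (2 without Lap2 siRNA, 0.3% FBS replicate 1). Higher genes with Lap2 siRNA in 15% FBS ranged from 2 to 5 when each library was left out, 2 without Lap2 siRNA, 15% FBS replicate 1. Lower serum responses with Lap2 siRNA went from 1 to 2 with DESeq2 and total-count scaling and to 0 at an adjusted p under 0.01 (edgeR; 2 at an unadjusted p under 0.05), and ranged from 0 to 3 when each library was left out. They were 0 without control siRNA, 0.3% FBS replicate 3 or control siRNA, 15% FBS replicate 2, 2 without control siRNA, 0.3% FBS replicate 2 or control siRNA, 15% FBS replicate 3, and 3 without Lap2 siRNA, 0.3% FBS replicate 1. Among values that had not passed the threshold, the sign turned for Tob1 upon serum stimulation with Lap2 siRNA (-0.16 with total-count scaling, -0.04 with the upper quartile), for Btg1 with Lap2 siRNA in 0.3% FBS (0.04 with total-count scaling) and for the Btg3 interaction (-0.07 to 0.11 when each library was left out, below 0 without control siRNA, 0.3% FBS replicate 1, control siRNA, 15% FBS replicate 2 or Lap2 siRNA, 0.3% FBS replicate 1). The cause was not tested.

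Same-numbered libraries of different groups did not deviate together over the genes that averaged 100 normalised counts or more (r from -0.12 to 0.10 over 18 pairs). Of the 12 libraries, 3 were most alike to their own number. With 3 libraries per group this cannot decide whether the numbers pair the samples. Replicate 3 was the lowest of both 15% FBS groups for Zfp36, Zfp36l1, Zfp36l2, Btg1 and Btg2. With the replicate block, 1 call of 40 changed, that of Btg2 with Lap2 siRNA in 15% FBS (0.19, edgeR adjusted p = 0.027), and the other 39 stayed. Total-count scaling shifted the median of all genes by -0.21 and -0.23 upon serum stimulation and by 0.11 and 0.09 with Lap2 siRNA, so member differences of that size depend on the scaling. Of 1456 list counts under alternatives, 128 moved by over 1.5 times. Of the 8 genes, Btg3 had the fewest reads and the widest intervals.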
